A study of Mus musculus with 4 samples.

Results

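Among the CD8 T cells that infiltrated B16K1 melanomas, 122 cells carried transcripts of dividing cells, 43 in the CD137 minus library and 79 in the CD137 plus library. They were chosen from 3998 tumour CD8 cells (a value for Cd8a or Cd8b1) by a value above 0 for at least 2 of the 3 genes Mki67, Top2a and Birc5. The remaining 1208 tumour CD8 cells of the CD137 minus library and 2668 of the CD137 plus library served as the comparison, and the whole table held 6965 cells. Mki67 (Ki-67, the coat of mitotic chromosomes), Top2a (topoisomerase II alpha, which untangles replicated DNA) and Birc5 (survivin, a subunit of the chromosomal passenger complex) were used for the choice, so their own values are a description and support nothing.

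The study asked what loss of CD137 (4-1BB, the costimulatory receptor encoded by Tnfrsf9) does to the proliferation and differentiation of CD8 T cells in tumours. The CD137 minus cells came from Cd4cre Cd137fl/fl ROSA26tomato donors, in which Cre under the Cd4 promoter deletes the floxed gene in T cells. The CD137 plus cells came from Cd137fl/fl ROSA26tomato donors without Cre. Marrow of both donors went into C57BL/6 recipients after lethal irradiation (8 Gray), reconstitution was checked at 7 weeks, B16K1 melanoma cells were given under the skin, and CD8 cells were taken on day 21. The cells of 7 mice carried hashtags and were pooled, but the table names no mouse, so each group was 1 library without a replicate and no difference below has a test. The labels give the tomato status of the CD137 minus fraction in contradictory ways, and groups follow the CD137 status in the titles. Cre, donor and CD137 loss cannot be told apart.

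A cell that divides first licenses and fires replication origins, copies its DNA and makes new histones in S phase, then condenses the chromosomes and pulls them apart on the spindle in mitosis. S phase genes are largely driven by E2F factors once the retinoblastoma proteins are phosphorylated by cyclin-dependent kinases (CDKs), whereas genes of G2 and mitosis depend on MuvB complexes, which bind a short element called CHR, and on NF-Y, which binds CCAAT boxes. In tumours, CD8 T cells under lasting antigen pass from stem-like (progenitor) exhausted cells with TCF1 (Tcf7) to terminally exhausted cells with inhibitory receptors such as PD-1 (Pdcd1) and TIM-3 (Havcr2), and naive or resting cells keep KLF2 and S1PR1.

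Promoters of 6 genes that were higher in cycling cells of both libraries show these elements, 2 of replication (Mcm6, Pclaf), the kinase that starts mitosis (Cdk1) and 3 of mitosis itself (Ccnb2, Ube2c, Cenpf). Each runs 5′ to 3′ from 250 bases before to 50 after the start of the gene (RefSeq, GRCm38.p6). Capitals mark the letters TTTGGCGC, TTTCCCGC, TTTCGCGC or TTTGCCGC (E2F), TTTGAA or TTTAAA (CHR) and CCAAT, on either strand. None of these motifs contains another, but matches can overlap, as in Mcm6 and Ube2c.
Mcm6 (chr1:128359656-128359955, minus strand): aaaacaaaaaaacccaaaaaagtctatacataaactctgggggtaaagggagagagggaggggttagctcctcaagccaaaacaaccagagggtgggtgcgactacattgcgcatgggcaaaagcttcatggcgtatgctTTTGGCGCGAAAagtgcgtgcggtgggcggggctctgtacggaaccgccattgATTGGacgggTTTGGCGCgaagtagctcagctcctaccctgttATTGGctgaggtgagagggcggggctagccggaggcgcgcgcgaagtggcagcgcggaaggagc
Pclaf (chr9:65890073-65890372, plus strand): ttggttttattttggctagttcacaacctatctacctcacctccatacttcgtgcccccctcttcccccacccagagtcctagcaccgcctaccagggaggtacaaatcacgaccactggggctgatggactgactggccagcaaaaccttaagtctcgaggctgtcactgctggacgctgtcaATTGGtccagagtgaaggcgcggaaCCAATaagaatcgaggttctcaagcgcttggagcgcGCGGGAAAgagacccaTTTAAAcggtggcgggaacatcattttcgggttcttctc
Cdk1 (chr10:69352863-69353162, minus strand): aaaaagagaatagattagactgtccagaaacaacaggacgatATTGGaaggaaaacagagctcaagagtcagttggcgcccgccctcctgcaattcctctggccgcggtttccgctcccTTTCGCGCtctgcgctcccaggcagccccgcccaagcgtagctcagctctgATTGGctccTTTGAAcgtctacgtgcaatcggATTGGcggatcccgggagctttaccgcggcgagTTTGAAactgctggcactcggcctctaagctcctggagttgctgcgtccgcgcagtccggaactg
Ccnb2 (chr9:70421505-70421804, minus strand): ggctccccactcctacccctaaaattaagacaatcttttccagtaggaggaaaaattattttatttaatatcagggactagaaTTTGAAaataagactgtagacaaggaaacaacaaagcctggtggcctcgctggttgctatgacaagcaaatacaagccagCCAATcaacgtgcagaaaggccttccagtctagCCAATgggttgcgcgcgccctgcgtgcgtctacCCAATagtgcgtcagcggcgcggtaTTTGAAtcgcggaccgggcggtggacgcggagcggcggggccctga
Ube2c (chr2:164769679-164769978, plus strand): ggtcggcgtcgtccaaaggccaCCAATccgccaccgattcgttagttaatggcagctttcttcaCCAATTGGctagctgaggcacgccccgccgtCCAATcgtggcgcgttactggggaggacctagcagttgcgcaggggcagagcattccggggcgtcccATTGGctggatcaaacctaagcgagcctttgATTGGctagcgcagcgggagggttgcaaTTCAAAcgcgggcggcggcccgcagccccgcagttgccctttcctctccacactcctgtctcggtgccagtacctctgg
Cenpf (chr1:189688037-189688336, minus strand): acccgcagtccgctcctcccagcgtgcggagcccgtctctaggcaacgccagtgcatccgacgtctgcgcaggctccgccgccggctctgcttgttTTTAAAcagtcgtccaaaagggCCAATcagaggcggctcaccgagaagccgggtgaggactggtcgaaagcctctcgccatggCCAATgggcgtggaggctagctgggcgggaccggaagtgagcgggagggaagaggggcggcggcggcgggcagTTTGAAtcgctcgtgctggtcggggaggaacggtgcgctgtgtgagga
Of the 37 genes of a published S phase list that were higher in cycling cells, 26 had a promoter in the table, and 10 of these (38.5%) held the E2F letters, 6 (23.1%) the CHR letters, 18 (69.2%) the CCAAT letters and 5 (19.2%) both CHR and CCAAT letters. Of the 39 such genes of the published G2/M list, 35 had a promoter, of which 2 (5.71%) held the E2F letters, 28 (80.0%) the CHR letters, 28 (80.0%) the CCAAT letters and 25 (71.4%) both CHR and CCAAT letters. Among the 8 promoters of naive-like genes that were lower in cycling cells, 0 held the E2F letters, 2 CHR and 2 CCAAT. The shares over all 32851 promoters were 2.26% for E2F, 27.6% for CHR, 37.4% for CCAAT and 10.7% for CHR with CCAAT, and over the 9663 promoters of the 12763 genes of the data set they were 4.31%, 19.5%, 39.3% and 8.03%. A match describes letters in this window and is not a binding site.

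Levels are sums of corrected counts per 1000000 of the same cells (CPM), and a value means at least 1 corrected count in a cell. Corrected totals per cell spanned 3632 to 5712 in the tumour CD137 minus library and 2949 to 4588 in the CD137 plus library, with medians of 5344 and 4138 in cycling and 4819 and 3674.5 in other cells. Cycling cells had values for more genes, a median of 2137 against 1416.5 in other cells of the CD137 minus library and 1878 against 1297 of the CD137 plus library. At 2900 corrected counts per cell the medians were 1385 against 1039 in CD137 minus cells and 1477 against 1113.5 in CD137 plus cells. The tumour libraries shared 1 cell barcode, which no cycling cell carried. All 95% intervals are exact (binomial for shares, Poisson for levels), take corrected counts as counts and cover counting error only.

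Some cycling cells went against the CD8 T cell label. Of the 43 cycling CD137 minus cells, 3 carried 6 melanoma markers each, with 51, 48 and 41 corrected counts of these markers and 0, 3 and 6 of Cd3e, Cd3d and Cd3g. In the 79 cycling CD137 plus cells, 1 had 3 melanoma markers with 6 counts. The 8 melanoma genes in the table summed to 659.9 CPM in cycling CD137 minus and 26.0 CPM in cycling CD137 plus cells, against 32.6 and 51.5 CPM in the other cells, with 2 and 4 of the genes at 0 in the cycling cells. The 9 B cell genes, MHC class II genes among them, summed to 239.96 and 1039 CPM in cycling against 406 and 454 CPM in other cells (3 and 2 of the 9 at 0 in the cycling cells), and the 9 macrophage and monocyte genes to 369 and 558 against 283 and 325 CPM (3 and 0 at 0). Cd79a had a value in 0 CD137 minus and 1 CD137 plus cycling cell, Lyz2 or C1qa in 0 and 2, and Siglech in 0 of either library. A stricter T cell gate, which also asked for a Cd3e, Cd3d or Cd3g value and for none of Cd79a, Lyz2, C1qa, Mlana, Pmel and Siglech, kept 39 of the 43 and 73 of the 79 cells. Results that rest on the removed cells are given with and without them. Beyond this gate, the part of other cell types in the results was not tested. None of the 13 measured T cell receptor and CD8 genes was past the limit used below in both libraries, and Cd3e had 1191 CPM in cycling and 1294 in other CD137 minus cells, and 1328 and 1527 CPM in CD137 plus cells.

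In the CD137 minus library 12 cycling cells had values for Mki67 and Top2a only, 14 for Mki67 and Birc5, 5 for Top2a and Birc5, and 12 for all 3. In the CD137 plus library the same patterns held 17, 16, 18 and 28 cells. The gate cut through a graded series. The published G2/M list without the gate genes had a median of 14.2 corrected counts per 10000 in CD137 minus CD8 cells with no gate gene, 17.5 with 1, 54.9 with 2 and 128 with 3. In CD137 plus cells the medians were 16.0, 19.8, 54.6 and 103. For the S phase list they were 7.77, 10.7, 22.2 and 67.6 in CD137 minus cells and 9.61, 11.9, 24.0 and 88.7 in CD137 plus cells. Both lists thus stepped up most between 1 and 3 gate genes. Just outside the gate were 134 CD137 minus and 366 CD137 plus cells with 1 gate gene, and just inside 31 and 51 cells with 2.

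**Figure D1:**
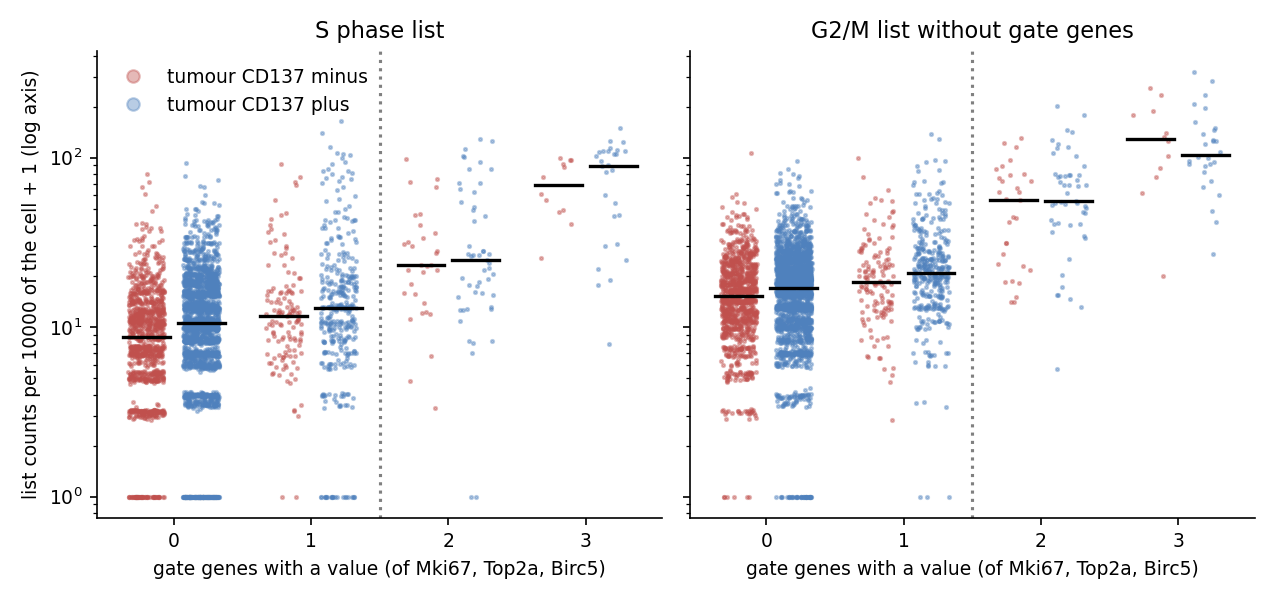
Corrected counts of the S phase list (left) and of the G2/M list without gate genes (right) per 10000 of the cell, plus 1, on a log axis, against the number of gate genes with a value; each point is 1 tumour CD8 cell, black bars are medians and the dotted line is the gate. Medians of the G2/M list were 54.9 with 2 and 128 with 3 gate genes in CD137 minus cells, and 54.6 and 103 in CD137 plus cells.

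Cycling cells were a small share of tumour CD8 cells in both libraries, 3.44% (43 of 1251, 95% interval 2.50 to 4.60) in CD137 minus and 2.88% (79 of 2747, 2.28 to 3.57) in CD137 plus. In the spleen 4 of 2444 CD137 minus CD8 cells passed the gate (0.164%), each with all 3 genes and none with a Pdcd1 value. Of the spleen CD137 plus cells 0 of 469 passed, which allows a share of up to 0.640% by the limit of 3 counts used for a count of 0. The intervals of the tumour libraries overlap widely, and their order turned with the setting. With each cell at 2900 corrected counts 25 of 1226 CD137 minus cells (2.04%) and 59 of 2728 CD137 plus cells (2.16%) passed, and all 3 genes were found in 12 cells (0.959%) and 28 cells (1.02%). Under the stricter T cell gate the shares were 3.24% and 2.84%.

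The cycling share was higher among cells with PD-1 transcripts than among those without, and at the deposited totals the intervals of these 2 kinds of cell did not meet in either library. Among cells with Pdcd1 it was 6.04% in CD137 minus (31 of 513, 4.14 to 8.47) and 3.74% in CD137 plus (57 of 1524, 2.84 to 4.82). Among cells without Pdcd1 it was 1.63% (12 of 738, 0.843 to 2.82) and 1.80% (22 of 1223, 1.13 to 2.71). The spleen shares above, from cells that are mostly without Pdcd1, are the background. After thinning, the share among Pdcd1 cells was 2.89% (13 of 450, 1.55 to 4.89) in CD137 minus and 2.87% (41 of 1430, 2.07 to 3.87) in CD137 plus, and among cells without Pdcd1 1.55% (12 of 776, 0.802 to 2.69) and 1.39% (18 of 1298, 0.824 to 2.18). These intervals meet in both libraries, and the gap between the libraries among Pdcd1 cells was not seen at equal corrected totals. With all 3 gate genes the shares were 1.17% among Pdcd1 cells and 0.813% among cells without Pdcd1 in CD137 minus, and 1.25% and 0.736% in CD137 plus, also with intervals that meet.

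Cells with both Pdcd1 and Havcr2, the gate for terminal exhaustion, cycled at 6.25% in CD137 minus (6 of 96, 2.33 to 13.1) and 5.23% in CD137 plus (15 of 287, 2.95 to 8.47), and after thinning at 1.61% (1 of 62) and 3.30% (7 of 212). Cells with Pdcd1 and Tcf7 but no Havcr2, the gate for progenitors, gave 4.41% (3 of 68, 0.919 to 12.4) and 2.01% (3 of 149, 0.417 to 5.77), and after thinning 2.38% (1 of 42) and 0.826% (1 of 121). For cells with Gzmk or Klrg1 (effector genes) the shares were 5.29% (11 of 208) and 3.69% (25 of 677), and after thinning 3.14% (5 of 159) and 1.95% (12 of 614). Cells with Xcl1 and Tnfrsf4 gave 7.09% (10 of 141, 3.45 to 12.7) and 2.37% (8 of 337, 1.03 to 4.62), the widest gap among these gates, and 4.49% (4 of 89) and 1.44% (4 of 278) after thinning. With all 3 gate genes the order turned, at 0.709% (1 of 141) and 1.19% (4 of 337). Most intervals at the deposited totals overlap, and with 3 to 25 cycling cells per gate there the order of the states was not resolved.

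**Figure D2:**
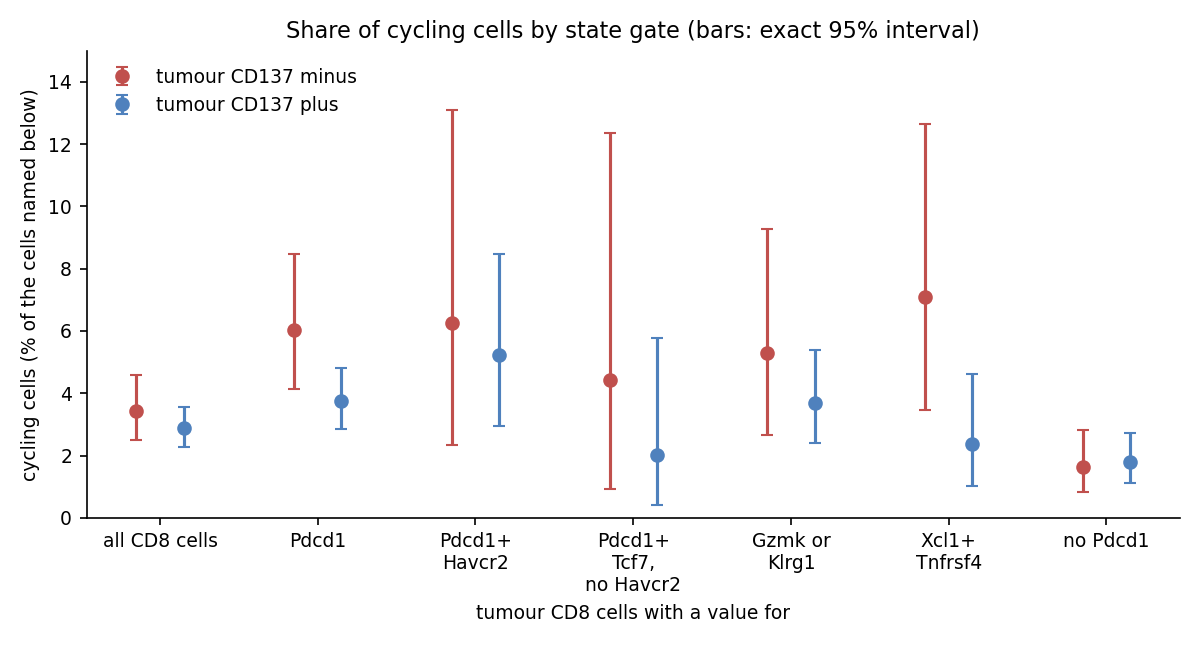
Percent of tumour CD8 cells that passed the cycling gate, by state gate, in the CD137 minus (left of each pair) and CD137 plus (right) libraries; points are shares and bars exact 95% binomial intervals, which cover counting error only. The share was 6.04% and 3.74% among Pdcd1 cells and 1.63% and 1.80% among cells without Pdcd1.

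Cycling cells differed from the other CD8 cells first by the machinery of replication and mitosis. Of 5788 genes measured in both libraries (at least 20 CPM and a value in 5% of the cells on 1 side, and a value on both sides), 1540 (26.6%) were higher in cycling cells and 254 (4.39%) lower, that is, by a log2 ratio (pseudocount 1 CPM) of at least 0.5 in the same direction in both libraries. The median log2 ratio of all these genes was 0.45 in CD137 minus and 0.26 in CD137 plus cells. Ribosomal protein genes took 21.5% and 20.2% of the corrected counts in cycling cells, against 34.8% and 29.3% in other cells. Relative to the medians, 747 genes (12.9%) were higher and 644 (11.1%) lower. A gene low in the other cells could be measured only through the cycling cells, which largely fixed its direction. The reverse held for a gene low in the cycling cells.

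Replication genes were higher nearly throughout. All 14 measured genes of the MCM helicase and origin licensing list were higher, with a median log2 ratio of 2.12 in CD137 minus and 2.17 in CD137 plus cells. Mcm6, a subunit of the helicase that opens the DNA, had 102 CPM (63.6 to 154) in cycling and 33.3 CPM in other CD137 minus cells, and 172 CPM (129 to 225) and 45.9 CPM in CD137 plus cells. Cdc6, which loads the helicase onto origins, differed more, with 36.9 against 1.91 CPM in CD137 minus (log2 ratio 3.71) and 84.4 against 3.03 CPM in CD137 plus cells (4.40). Of the 28 measured genes for polymerases, clamp and repair 27 were higher (medians 2.23 and 2.10). Pcna, the sliding clamp, had a value in 74.4% of cycling and 30.5% of other CD137 minus cells, and in 49.4% and 27.5% of CD137 plus cells, so it also marked many cells outside the gate. Rpa1, the exception in the list, had log2 ratios of 0.32 and 1.35.

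Enzymes that supply nucleotides were higher for 11 of 16 measured genes. Rrm2, the regulated subunit of ribonucleotide reductase, had 277 CPM in cycling against 8.32 CPM in other CD137 minus cells (4.90) and 428 against 14.5 CPM in CD137 plus cells (4.80). The purine genes Paics and Atic were among the 5 that did not pass, with log2 ratios of 0.16 and 0.76 in CD137 minus and 0.57 and 0.44 in CD137 plus cells. Histones and chromatin assembly factors were higher for 26 of 27. Hist1h1b, a linker histone, had 646 against 11.6 CPM in CD137 minus (5.68) and 698 against 19.4 CPM in CD137 plus cells (5.10), but histone genes share near-identical copies and the counts of single ones are uncertain. Stmn1 (stathmin, a regulator of microtubules) reached 1126 CPM in cycling against 62.1 CPM in other CD137 minus cells and 1246 against 87.5 CPM in CD137 plus cells.

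Regulators of the cycle were higher for 22 of 25 measured cyclins, CDKs and E2F regulators. Ccna2, the cyclin of S phase and G2, had 138 CPM (93.4 to 198) against 2.25 CPM in CD137 minus (5.42) and 169 CPM (126 to 221) against 1.62 CPM in CD137 plus cells (6.02). Ccnb2, a mitotic cyclin, had 365 against 9.02 CPM in CD137 minus (5.19) and 351 against 16.5 CPM in CD137 plus cells (4.33). The D cyclins, which act in G1 downstream of growth signals, stood apart: Ccnd2 had log2 ratios of -0.34 and -0.76 and Ccnd3 of -0.12 and -0.05. Cdk1, the mitotic kinase, had 78.5 against 4.86 CPM (3.76) and 169 against 7.68 CPM (4.29).

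Mitotic genes showed the largest medians of the lists: the 22 measured centromere and kinetochore genes were all higher, by 4.12 in CD137 minus and 4.01 in CD137 plus cells. Cenpf, a kinetochore protein made in G2, had 92.3 CPM (56.4 to 143) in cycling and 1.04 CPM in other CD137 minus cells, and 182 CPM (137 to 236) and 2.53 CPM in CD137 plus cells. Its log2 ratios were 5.51 and 5.70. Genes as low as this in other cells passed the filter only through the cycling cells, so their direction was largely set by it. The size of such ratios also rests on the pseudocount. The G2/M list medians of 2.90 in CD137 minus and 3.30 in CD137 plus cells were 2.07 and 2.11 with 10 CPM. Of 26 spindle and cytokinesis genes 25 were higher (3.23 and 3.65), of 19 condensin, cohesin and chromosome structure genes 18, and of 10 genes of the anaphase-promoting complex and mitotic ubiquitination all 10. Ube2c, the E2 enzyme of that complex, had a value in 58.1% of cycling and 3.81% of other CD137 minus cells, and in 53.2% and 6.45% of CD137 plus cells.

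By the rule for named genes the furthest above 0 were Cenpf, Ccna2, Pclaf, Hist1h1b, Hist1h2ab, Cenpe, Bub1, Hist1h2ae, Fbxo5, Cdca5, Plk1 and Rrm2. Pclaf, a PCNA partner that was in none of the lists, had 683 CPM (577 to 802) in cycling against 9.02 CPM in other CD137 minus cells (6.09) and 932 CPM (827 to 1046) against 21.1 CPM in CD137 plus cells (5.40). It had a value in 25 of the 43 and 53 of the 79 cycling cells. The others outside the lists were Cdca5 (sororin, a guard of sister chromatid cohesion), Shcbp1, Neil3, Pbk, Aspm, Sapcd2, Mastl, Cdkn3, Melk, Poc1a and Depdc1a, with log2 ratios between 3.56 and 5.16.

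Genes of resting T cells were lower in the cycling cells. Of 12 measured naive-like genes 11 were lower and 0 higher, against 4.39% lower and 26.6% higher over all genes. Their medians were -1.53 in CD137 minus and -1.61 in CD137 plus cells. Klf2, a transcription factor that keeps T cells quiescent and drives the genes of recirculation, had 125 CPM (82.1 to 181) in cycling and 1570.3 CPM in other CD137 minus cells, and 269 CPM (215 to 334) and 1161 CPM in CD137 plus cells. Its log2 ratios were -3.65 and -2.10, and the intervals of cycling and other cells did not meet in either library. Il7r, the interleukin-7 receptor that keeps resting T cells alive, had a value in 13.95% of cycling and 34.3% of other CD137 minus cells, and in 7.59% and 23.2% of CD137 plus cells. S1pr1, the egress receptor that KLF2 induces, had 3 corrected counts in all cycling CD137 minus cells and 1 in all cycling CD137 plus cells, at ratios to the other cells of 0.228 (0.0468 to 0.672) and 0.0726 (0.00183 to 0.407).

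The named lower genes included Thada, Selenop, Klf2, Igfbp4, S1pr1, Tagap, Rflnb, Txk, Gzmm, Zfp36 and Snhg12. Zfp36, which destabilizes mRNAs of cytokines, was the most abundant of these after Klf2 in the other cells, with 369 against 1132 CPM in CD137 minus (-1.61) and 318 against 980.5 CPM in CD137 plus cells (-1.62). Several others were close to the counting limit: Thada and Selenop had 1 corrected count in the cycling cells of each library. Among 17 measured CDK inhibitors and quiescence genes 7 were lower and 2 higher, against 4.39% lower and 26.6% higher over all genes. The anti-proliferative Btg1 had a value in 65.1% of cycling and 92.5% of other CD137 minus cells, and in 63.3% and 87.9% of CD137 plus cells. The 2 that were higher were themselves CDK inhibitors, Cdkn2a with 60.0 against 6.07 CPM in CD137 minus (3.11) and 58.4 against 18.0 CPM in CD137 plus cells (1.65), and Cdkn2c (1.25 and 0.69). Bcl2, the survival factor of resting T cells, had 18.5 against 143 CPM in CD137 minus (-2.88) and 55.2 against 118 CPM in CD137 plus cells (-1.08).

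**Figure D3:**
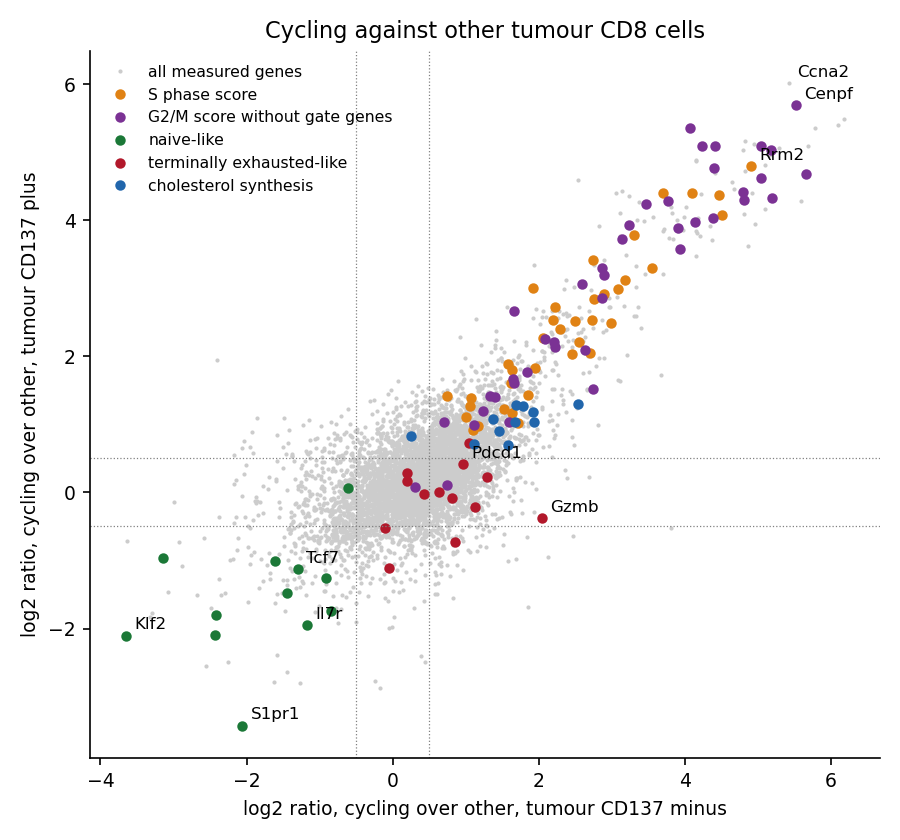
Log2 ratio of cycling over other tumour CD8 cells for each of the 5788 measured genes (grey) in the CD137 minus (horizontal) and CD137 plus (vertical) library, with 5 lists in colour and dotted lines at 0.5 and -0.5. S phase and G2/M genes lie at the upper right, 11 of 12 naive-like genes at the lower left, and terminally exhausted-like genes near 0 on the vertical axis.

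A larger share of cycling than of other cells had a PD-1 value, while the level passed the limit in CD137 minus cells only. Pdcd1 had a value in 72.1% of cycling CD137 minus cells (31 of 43, 56.3 to 84.7) against 39.9% of other cells, and in 72.2% of cycling CD137 plus cells (57 of 79, 60.9 to 81.7) against 55.0%. With the cells gated first and then thinned, the shares were 67.4% against 34.9% in CD137 minus and 68.4% against 51.7% in CD137 plus cells, and under the stricter T cell gate 76.9% against 40.0% and 75.3% against 54.5%. The CD137 minus gap was smaller where fewer cells passed: 13 of 25 cycling cells had Pdcd1 with the gate applied after thinning, and 6 of 12 with all 3 gate genes. In CD137 plus these were 41 of 59 and 19 of 28. The Pdcd1 level was 692 CPM in cycling and 353 CPM in other CD137 minus cells (0.97), and 688 and 516 CPM in CD137 plus cells (0.41). The medians of all genes were 0.45 and 0.26, and Pdcd1 in CD137 plus cells was under the limit of 0.5. Cycling cells had values for more genes in general, also at equal corrected totals.

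Few state markers were past the limit the same way in both libraries. Of 13 measured terminally exhausted-like genes 1 was higher and 0 lower by the rule for both libraries, against 26.6% and 4.39% of all genes. The 1 was Entpd1 (CD39), with 50.8 against 24.1 CPM in CD137 minus (1.04) and 61.7 against 36.8 CPM in CD137 plus cells (0.73). In the CD137 minus library alone 8 of the 13 were higher and 0 lower (47.3% and 11.2% over all genes), and in the CD137 plus library 1 was higher and 3 lower (35.1% and 9.95%). Rgs16, a regulator of G protein signals, had 748 against 304 CPM in CD137 minus (1.29) and 630 against 537 CPM in CD137 plus cells (0.23). Havcr2 had a value in 14.0% of cycling and 9.19% of other CD137 minus cells and in 20.3% and 12.7% of CD137 plus cells, with log2 ratios of 0.20 and 0.28. The list median in CD137 minus cells, 0.81, turned to -0.87 in the 12 cells with all 3 gate genes and was 0.94 under the stricter T cell gate.

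Progenitor markers were lower for 4 of 12 measured genes and higher for 1, against 4.39% and 26.6% of all genes, and relative to the medians 0 were higher. Tcf7 had a value in 9.30% of cycling and 30.4% of other CD137 minus cells, and in 10.1% and 19.9% of CD137 plus cells. Id3, a transcription regulator of memory and progenitor cells, had log2 ratios of -3.08 and -1.46, and Slamf6 of 0.03 and -0.51. Myb, which sustains exhausted progenitors, was the 1 that was higher (0.87 and 1.01). Cells in the progenitor gate (Pdcd1 and Tcf7 without Havcr2) made up 6.98% of cycling and 5.38% of other CD137 minus cells, and 3.80% and 5.47% of CD137 plus cells. Cells in the gate for terminal exhaustion made up 14.0% (5.30 to 27.9) against 7.45%, and 19.0% (11.03 to 29.4) against 10.2%.

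Few genes of effector function were past the limit in both libraries. Of 12 measured cytotoxic genes 0 were higher and 1 (Gzmm) lower in both libraries, and of 10 cytokine and chemokine genes 0 and 1 (Ccl5), against 26.6% higher and 4.39% lower over all genes. Relative to the median of all genes the cytotoxic list stood at -0.24 in CD137 minus and -0.63 in CD137 plus cells. Ccl5, a chemokine of effector cells, had 2870.3 CPM in cycling and 4283 CPM in other CD137 minus cells (-0.58), and 2535 and 6999 CPM in CD137 plus cells (-1.46). The median log2 ratio of the cytokine list was 0.58 in CD137 minus and -0.58 in CD137 plus cells, or 0.13 and -0.84 relative to all genes. It was 0.33 in CD137 plus cells with a gate of at least 1 gene. Cd69, an early activation and retention marker, was lower in both, with 240.0 against 836 CPM in CD137 minus and 379.8 against 747 CPM in CD137 plus cells. The Gzmk or Klrg1 gate held 25.6% of cycling and 16.3% of other CD137 minus cells, and 31.6% and 24.4% of CD137 plus cells.

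**Figure D4:**
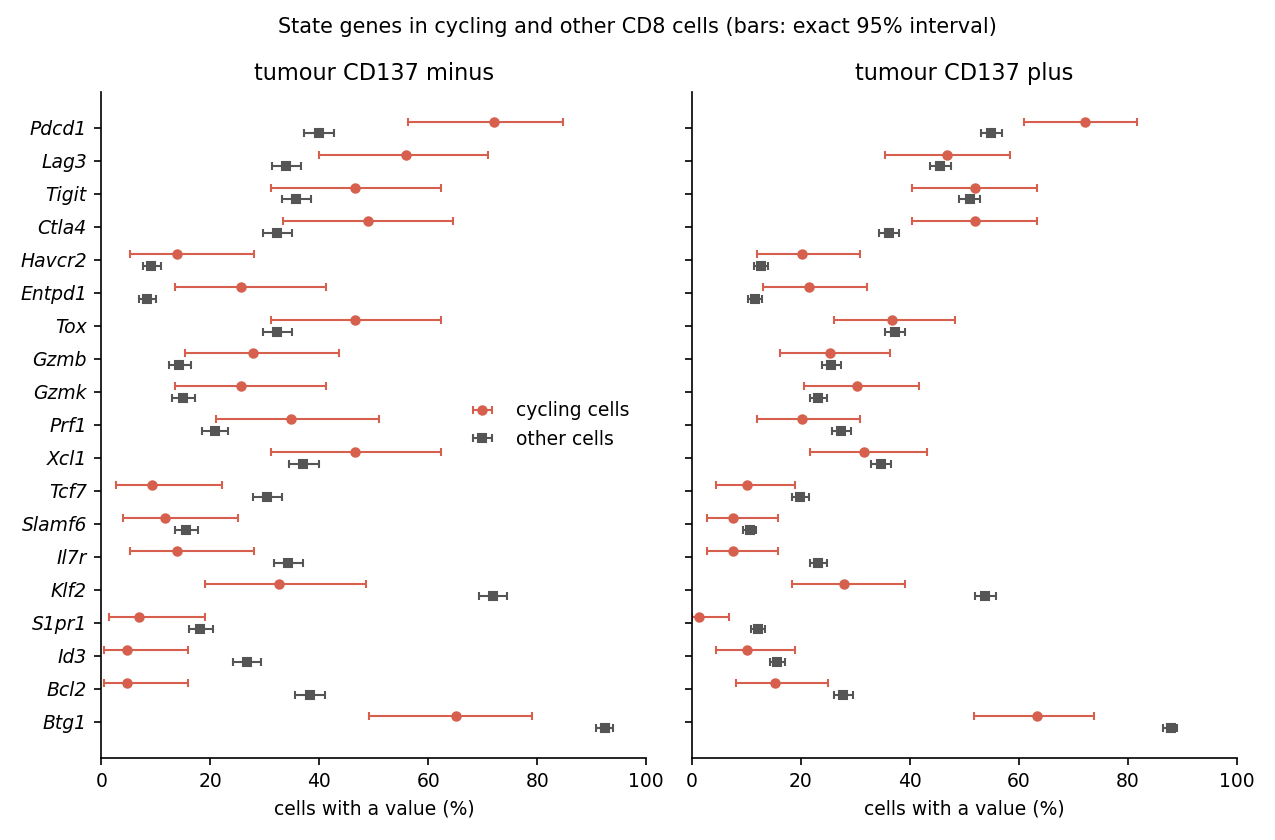
Percent of cycling (circles, upper of each pair) and other (squares) CD8 cells with a value for 19 state genes in the CD137 minus (left) and CD137 plus (right) tumour libraries, with exact 95% intervals. Pdcd1 is found in 72.1% and 72.2% of cycling cells, and Klf2, Il7r and Btg1 are found in a smaller share of cycling than of other cells in both libraries.

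Since the cycling cells held more Pdcd1 cells, the comparison was also made among Pdcd1 cells alone, 31 against 482 in CD137 minus and 57 against 1467 in CD137 plus. It gave 936 higher and 260 lower of 5839 measured genes. Klf2 remained lower there, by log2 ratios of -2.49 in CD137 minus and -1.07 in CD137 plus cells, as did Zfp36 (-1.25 and -1.08). Igfbp4 and Rflnb were past the limit in CD137 minus cells (-1.30 and -1.58) but not in CD137 plus cells (-0.42 and -0.11).

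Growth metabolism was higher in part. Cholesterol synthesis genes were higher for 10 of 11 measured, with medians of 1.67 in CD137 minus and 1.04 in CD137 plus cells. Fdps, which makes farnesyl diphosphate, had 198 against 51.7 CPM in CD137 minus (1.92) and 153 against 66.4 CPM in CD137 plus cells (1.19), and Sqle, squalene epoxidase, had log2 ratios of 2.53 and 1.29. Insig1, which holds the pathway back when sterols are plentiful, was the exception at 0.25 and 0.83. Glycolysis genes were higher for 8 of 14, among them Ldha (1.03 and 0.72) and Tpi1 (1.39 and 1.10), proteasome genes for 10 of 23 and oxidative phosphorylation genes for 9 of 29. All genes were higher at a share of 26.6%. Relative to the medians 3 glycolysis, 2 proteasome and 1 oxidative phosphorylation genes were higher, against 12.9% of all genes. Of 26 MYC and cytokine growth genes 2 were higher, and Myc itself had log2 ratios of -0.94 and 0.45.

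Tnfrsf9, the deleted gene, was examined in cycling cells before the libraries were compared. Its level was 111 CPM (71.0 to 165) in cycling CD137 minus and 357 CPM (293 to 430.4) in cycling CD137 plus cells, a log2 ratio of -1.68. In other cells it was 56.0 CPM (50.1 to 62.5) and 425 CPM (412 to 438), a log2 ratio of -2.90. Of the cycling cells 32.6% (14 of 43, 19.1 to 48.5) in CD137 minus and 48.1% (38 of 79, 36.7 to 59.6) in CD137 plus had a value, and of the other cells 15.4% and 45.3%. Spleen CD8 cells without Pdcd1 gave a background of 0.831% (20 of 2408) and 3.72% (17 of 457) at median totals of 3956 and 5364. Among cycling cells with Pdcd1 the shares were 38.7% and 59.6%, and among other cells with Pdcd1 33.2% and 63.9%. The transcript was thus found in the CD137 minus cells, above that background, and at a lower level than in CD137 plus cells. The labels do not name the floxed exons, and the 5′ reads may come from outside them, so the transcript's presence does not check the deletion.

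Within the cycling cells the libraries differed by many genes in both directions. Of 3847 genes measured (at least 50 CPM and a value in 10% of cycling cells of 1 library), 694 (18.0%) were higher and 581 (15.1%) lower in CD137 minus by a log2 ratio of 0.5 or more, with a median of 0.04 and an SD over genes of 0.62. Levels in the other cells were summed over 1208 and 2668 cells. There 3668 of these genes were measured, at a lower limit of 20 CPM and a value in 5% of cells of 1 library. Of the 3668 genes 47 (1.28%) were higher and 235 (6.41%) lower, with an SD of 0.26. The genes were first chosen by their level in cycling cells, so the 2 spreads are not on equal terms. The wider spread in cycling cells comes with 43 and 79 cells, in which 1 corrected count is worth 4.61 and 3.25 CPM, and how much of it is counting error was not tested. Of the genes measured in both, 84 were past the limit the same way in cycling and other cells and 42 opposite ways.

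Several cell cycle lists had more genes lower than higher in cycling CD137 minus cells. Of 22 measured spindle and cytokinesis genes 13 were lower and 0 higher (median -0.73), of 14 MCM and licensing genes 7 and 0 (-0.54), of 32 S phase genes 11 and 0 (-0.45) and of 35 G2/M genes 12 and 1 (-0.36), against 15.1% lower and 18.0% higher over all genes. In the other cells the medians of the same genes were -0.32, -0.42, -0.45 and -0.29. The S phase median was thus alike outside the gate, and the MCM and G2/M medians nearly so. The median of all genes was 0.04 in cycling and -0.15 in other cells. Relative to it, the S phase, MCM and G2/M medians were lower inside the gate than outside. Whether they differ was not tested. Of 24 polymerase, clamp and repair genes 7 were lower and 1 higher (median -0.21), and their median in other cells was -0.40. The S phase median turned to 0.095 with all 3 gate genes and the T cell criteria. Kif15, a kinesin that holds the spindle poles apart, had 27.7 CPM (10.2 to 60.3) in CD137 minus and 120.1 CPM (84.6 to 166) in CD137 plus cycling cells, and Hmmr 27.7 CPM (10.2 to 60.3) and 81.2 CPM (52.5 to 119.8). Tubb5, a beta tubulin, had 1001 and 1626 CPM, and Tuba1b 337 and 578 CPM. Centromere genes had a median of -0.42 (2 higher and 4 lower of 15) and histones of -0.19 (1 and 5 of 26). Other lists did not lean by their counts of lower genes: nucleotide synthesis had a median of -0.07 (3 and 3 of 16), cyclins, CDKs and E2F regulators of -0.17 (0 and 2 of 17), and condensin, cohesin and chromosome structure of -0.21 (0 and 2 of 19). Mitotic cyclin B2 was alike, at 365 and 351 CPM.

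For 4 lists of state genes the medians were below 0 outside the gate and near or above 0 inside it, which was not particular to them. The median of all genes was -0.15 in other and 0.04 in cycling cells. Cholesterol synthesis genes had -0.40 in other and 0.005 in cycling cells, and glycolysis genes -0.30 and -0.02. Under the stricter T cell gate the medians in cycling cells were 0.19 for cholesterol synthesis and -0.44 for glycolysis. The glycolysis value near 0 thus did not hold without the removed cells. Effector-like genes had -0.49 and 0.004, and exhaustion and effector transcription factors -0.39 and 0.23. The terminally exhausted-like list had a median log2 ratio of -0.02 in cycling cells (2 higher and 1 lower of 13) and of -0.58 in other cells. The inhibitory receptors had 0.01 (4 higher and 1 lower of 11) and -0.47, the cytotoxic genes -0.05 (3 and 1 of 11) and -0.51, and the cytokines and chemokines 0.62 (4 and 0 of 8) and -0.67. Over all genes 18.0% were higher and 15.1% lower in cycling cells, and these lists are short. The cytokine median in cycling cells turned to -0.23 with at least 1 gate gene and was 0.028 with all 3. The trafficking and residency list went the other way, with -0.41 in cycling cells (1 higher and 6 lower of 13) and -0.14 in other cells. Whether these medians differ between cycling and other cells was not tested. In the 12 and 28 cells with all 3 gate genes the terminally exhausted-like median was -1.20 and that of inhibitory receptors -1.38, so neither value near 0 held there. Pdcd1 had 692 CPM (586 to 812) and 688 CPM (599 to 787) in cycling cells of CD137 minus and plus.

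Gzmb, a killing protease of effector cells, had 461 CPM (375 to 561) in cycling CD137 minus and 201 CPM (154 to 258) in cycling CD137 plus cells (log2 ratio 1.19), whereas in other cells it had 112 and 262 CPM (-1.22). The share of cycling cells with a value was alike, 27.9% and 25.3%. Lag3, an inhibitory receptor, had 443 CPM (359 to 541) and 211 CPM (163 to 269) in cycling cells (1.07) and 246 and 349.8 CPM in other cells (-0.51). Xcl1, a chemokine for cross-presenting dendritic cells, had 789 and 379.8 CPM in cycling cells (1.05) and 494 and 669 CPM in other cells (-0.44). For Prf1 (perforin) the intervals of the cycling cells overlapped, at 148 CPM (101 to 208) and 94.1 CPM (63.0 to 135), with a log2 ratio of 0.64.

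**Figure D5:**
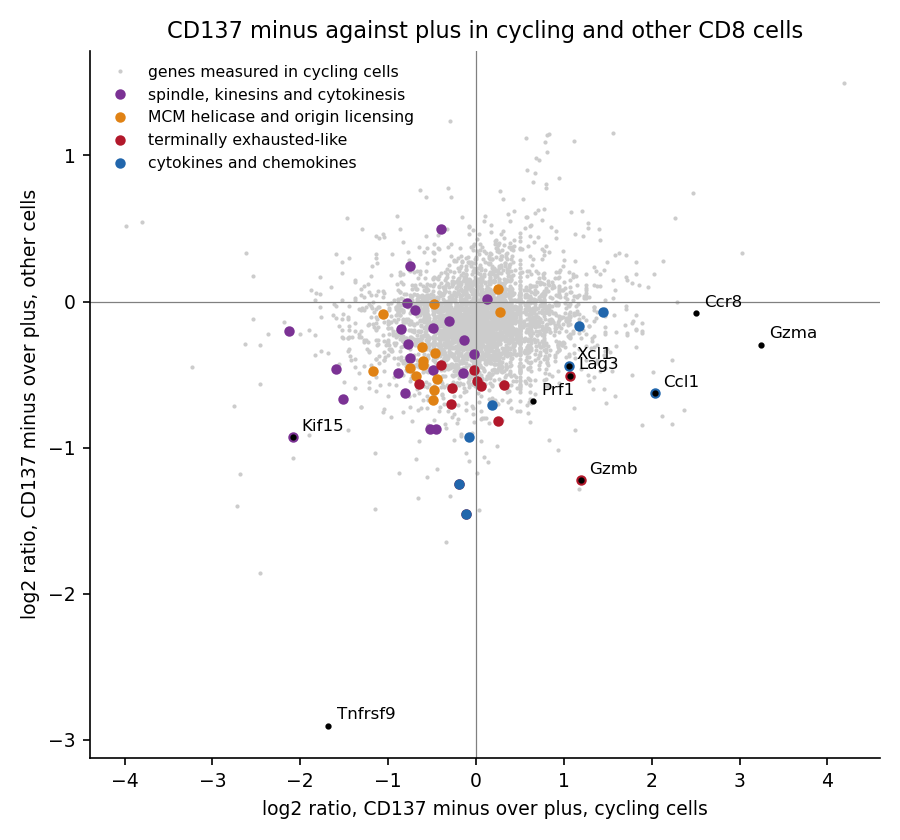
Log2 ratio of CD137 minus over CD137 plus in cycling cells (horizontal) and in other CD8 cells (vertical) for the genes measured in cycling cells, with 4 lists in colour and 9 genes named. Gzmb, Lag3, Xcl1, Ccl1 and Prf1 lie right of 0 and below 0, spindle genes mostly left of 0, and Tnfrsf9 lowest.

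The 12 named genes furthest above 0 in CD137 minus cycling cells were Gzma, Tnfaip8l2, Ccr8, Ifitm2, Apoe, Arhgef18, Myo5a, Tctex1d2, Tecpr1, C2cd4b, Ccl1 and Creb3l2. Most of these ratios turn on few corrected counts in cycling CD137 plus cells. There Tnfaip8l2 had 2, Arhgef18 3, Myo5a, Tctex1d2 and Tecpr1 4 each, and Ifitm2, Apoe, C2cd4b and Creb3l2 5 each. Ccr8, Ccl1 and Gzma had 10, 15 and 21. Ccr8, a chemokine receptor, had 189 CPM (136 to 257) in 17 of 43 CD137 minus cells and 32.5 CPM (15.6 to 59.7) in 8 of 79 CD137 plus cells, a log2 ratio of 2.51 that was 3.22 under the stricter T cell gate and -0.49 with all 3 gate genes. In other cells Ccr8 had 62.4 and 66.0 CPM. Gzma (granzyme A) had 655 and 68.2 CPM (3.25), each in 7 cells, but 69.0% of the CD137 minus sum lay in 1 cell, and among Pdcd1 cells the ratio was 0.48. Likewise 61.4% of Ccl1 lay in 1 cell. Apoe and Myo5a, which melanoma cells also express, had ratios of 2.29 and 2.23, and of 1.04 and 0.79 without the cells that the stricter gate removed.

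The 12 furthest below 0 were Slamf1, Crbn, Cyb5r4, Atad2b, Riox2, Kif1b, Mzt1, Btbd10, Por, Gimap8, Arhgap11a and Ahcy. Slamf1, a costimulatory receptor of activated T cells, had 1 corrected count in 1 of 43 CD137 minus and 16 counts in 15 of 79 CD137 plus cells, a ratio of 0.0889 (0.00212 to 0.572), against 22.0 and 30.4 CPM in other cells. Crbn and Atad2b had 2 corrected counts each in CD137 minus cycling cells, at ratios of 0.142 (0.0161 to 0.585) and 0.150 (0.0169 to 0.620). Arhgap11a, a regulator of RhoA in cytokinesis, had 18.5 CPM in 4 of 43 CD137 minus and 84.4 CPM in 19 of 79 CD137 plus cells (-2.13). Its cycling over other log2 ratios were 2.18 and 4.11, but in CD137 minus cells it was under the 20 CPM filter of that comparison. These 12 genes were found in 1 to 4 of the 43 cells, so each turns on few cells.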

How the data were processed

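Single-cell 5′ libraries (10x kit v1.1) of tumour and spleen CD8 cells were analysed from 1 table that the authors deposited, with 12763 genes in 6965 cells. Each deposited entry is a natural log; e raised to it, less 1, came out whole for every entry within 1e-12 of its size. Cell Ranger 3.0.2, Seurat 3.0 and the build mm10 are named in and credited to the submitters' processing notes, per the labels, which state no cell filter. The whole numbers have narrow totals per cell in each library, as read from the values, and are called corrected counts; raw depth is unknown and no count model was used.

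Values were summed over cells, scaled to 1000000 and compared as log2 ratios with a pseudocount of 1 CPM (limits in the report), in Python 3.11.15 with numpy 2.4.6, scipy 1.17.1 and matplotlib 3.10.9. The ratios were run on simulated Poisson counts at the cell numbers of the CD137 plus library, with known folds for well expressed genes only. That run does not cover CD137 minus against plus or weakly expressed changed genes, and does not test the calls. Thinning drew 2900 corrected counts from each cell and every tumour cell had that many. Other gates, weights, scalings, pseudocounts, filters and limits were tried (closing section). No doublet caller was run, so doublets remain possible. The cells, the 39 gene lists and the rules were chosen with earlier results of these data known. Named were the 12 genes furthest above and below 0 per comparison, by the library nearer 0 for cycling against other, and the 12 furthest above 0 outside the 12 cell cycle lists, leaving out gate, receptor segment, immunoglobulin, mitochondrial, ribosomal, haemoglobin and sex-linked genes and unnamed models. Tnfrsf9, state genes and list examples were added, the examples after their values were seen. Some named genes and a gate are not reported here.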

Additional observations from a re-analysis of the deposited data

Results flagged for a closer look

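For 10 genes the difference between CD137 minus and plus went one way in cycling cells and the other way in other CD8 cells, each past the limit of 0.5. The log2 ratio in cycling cells was 1.19 for Gzmb (-1.22 in other cells), 1.07 for Lag3 (-0.51), 0.64 for Prf1 (-0.68), 0.62 for Tnfsf9, the ligand of CD137 (-0.67), 0.50 for Tnfrsf4, the costimulatory receptor OX40 (-0.54), 0.57 for Bhlhe40 (-0.56), 2.04 for Ccl1 (-0.63), 2.36 for Ifitm2 (-0.74), 2.23 for Tctex1d2 (-0.84) and 0.60 for Psmd1 (-0.53). The difference between cycling and other cells was not tested. Tctex1d2 turned to -0.036 in cycling cells with at least 1 gate gene, and 61.4% of the Ccl1 counts in cycling CD137 minus cells lay in 1 cell. They were taken from the genes of the lists and the named genes, and 42 of 3668 genes in all went opposite ways.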

How the results depend on the processing

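No paired analysis was possible because each group is 1 library and the labels share no replicate number. Cycling shares in CD137 minus and plus were 0.959% and 1.02% with all 3 gate genes (0.831% and 0.933% with the T cell criteria as well, a setting chosen after seeing the data), 14.1% and 16.2% with at least 1, and 2.04% and 2.16% after thinning. The number of measured genes changed with the setting and is given beside each count. Genes higher and lower in cycling cells of both libraries numbered 617 and 46 of 5531 with at least 1 gate gene. At a limit of 1 they numbered 541 and 52 of 5788. Lower genes were 443 of 5211 with all 3 gate genes. Higher genes were 2517 of 9214 without a filter and 936 of 5839 among Pdcd1 cells. Genes higher and lower in CD137 minus within cycling cells numbered 127 and 145 of 3187 with at least 1 gate gene. They numbered 1210 and 891 of 3993 after thinning, and 1766 and 1892 of 9214 without a filter. At a limit of 1 they were 203 and 171 of 3847, and at 100 CPM and 20% of cells 272 and 174 of 1783. Lower genes were 1184 of 3827 with all 3 gate genes. Cycling over other medians with all 3 gate genes were, in CD137 minus, 3.00 (S phase), 3.91 (G2/M), -0.89 (naive-like), -0.89 (progenitor), -0.87 (terminally exhausted-like, turned) and -0.93 (inhibitory receptors, turned), and 3.98 (G2/M) in CD137 plus. With the T cell criteria as well they were 3.10, 4.20, -0.67 (terminally exhausted-like), -0.70 (inhibitory receptors), 0.011 (effector-like), 0.18 (glycolysis) and 1.15 (cholesterol) in CD137 minus and 4.05 (G2/M) in CD137 plus. With at least 1 gate gene they were 1.11 and 1.20 (S phase), 1.73 and 1.69 (G2/M), -0.78 and -0.74 (naive-like), 0.88 (cholesterol, CD137 minus) and 0.33 (cytokines, CD137 plus, turned). After thinning S phase was 2.93 and G2/M 3.79 in CD137 minus; with a pseudocount of 10 CPM S phase was 1.68 and 1.79 and G2/M 2.07 and 2.11. Minus over plus medians with all 3 gate genes were -1.36 (progenitor), -1.20 (terminally exhausted-like), -1.38 (inhibitory receptors), 0.028 (cytokines) and -0.65 (cholesterol); with the T cell criteria as well -0.48, -1.39, -1.24, 1.48 and -0.65, and 0.095 (S phase) and -0.95 (glycolysis). With at least 1 gate gene cytokines turned to -0.23, and after thinning naive-like genes turned to -0.22 and cholesterol was -0.66. Of single genes Ccr8 (-0.49) and Creb3l2 (-0.40) turned with all 3 gate genes, and Myo5a (-0.078), Tctex1d2 (-0.036) and C2cd4b (-0.10) with at least 1. With all 3 gate genes the Pdcd1 share of cycling CD137 minus cells was 50%, that of Xcl1 and Tnfrsf4 cells 8.33% (11.6% with the gate kept and cells thinned), those of the terminal and progenitor gates 0%, and in CD137 plus cells the progenitor gate held 0%. The cause was not tested. Under the stricter T cell gate, the equal weighting of cells and the scaling without cell cycle genes the counts of higher and lower genes stayed within 1.5 times of those reported. The 43 and 79 cycling cells set the precision: 1 corrected count is worth 4.61 and 3.25 CPM, and raw depth is unknown.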
